A study of Homo sapiens with 4 samples.

Results

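The bins described here are the subtelomeric bins of the human autosomes, that is, bins of about 200 kb that start within the first 5 Mb of a chromosome or end within its last 5 Mb. For chromosomes 13, 14, 15, 21 and 22, whose short arms hold mainly satellite and ribosomal repeats, only the q-arm end was taken. The rule used position alone and gave 998 bins in 39 chromosome ends, out of 13547 autosomal bins and 14444 bins in the whole list. There were 17 p ends and 22 q ends, and 17 chromosomes had both. Of the 998 bins, 775 had enough listed contacts in all 4 maps to be kept (at least 50% of their pairs on the chromosome in each map), and all contact values below come from these.

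Contacts were measured by Hi-C, in which fixed chromatin is cut with HindIII, neighbouring ends are ligated and the ligated pairs are sequenced. All cells were IMR90, a human lung fibroblast line, and in the samples of the series they carried the ER:HRAS G12V fusion from the retroviral vector pLNCX2, which is held inactive until 4-hydroxytamoxifen (4OHT) is added. Growing cells with a hairpin RNA in pMSCV against HMGA1 (Grow-shA1, 2 samples) were not treated, and senescent cells with the same hairpin (OIS-shA1, 2 samples) had 6 days of 100 nM 4OHT. The Grow and OIS maps, without the hairpin, came from an earlier data set and match none of the samples, so the hairpin and the data set cannot be told apart when a map with shA1 is set against one without it. Each condition was 1 deposited map, with no values per replicate and between 4032189 (OIS-shA1) and 4631800 (Grow) listed pairs of bins. No replicate spread exists to judge a difference by and no test between conditions was made. Differences with a map in common, such as the OIS map in OIS-shA1 minus OIS and in OIS minus Grow, are given side by side only. A value given as mean ± SD has its SD over chromosomes or chromosome ends of 1 map, which measures how even a value is along the genome.

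Chromosome ends carry tandem TTAGGG repeats that are bound by shelterin and kept at length by telomerase, and behind them lie subtelomeres, in which segments shared between chromosomes give way to unique, often gene-rich and GC-rich sequence. In the nucleus, active chromatin (the A compartment) and inactive chromatin (B) each tend to contact their own kind. In fibroblasts driven into senescence by oncogenic RAS, inactive chromatin gathers into dense foci. HMGA1 is an abundant chromatin protein that prefers AT-rich DNA and takes part in forming these foci.

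The reference sequence shows where a map can begin at a chromosome end. The outermost called bases of 2 ends are printed 5′ to 3′ on the reference strand (GRCh37, the build of the deposited bins), because they show a reference that reaches the telomere repeat at some ends and stops in other sequence at others. Capitals mark the repeat unit, which reads CCCTAA on p ends and TTAGGG on q ends.
10q, chr10:135524628-135524747: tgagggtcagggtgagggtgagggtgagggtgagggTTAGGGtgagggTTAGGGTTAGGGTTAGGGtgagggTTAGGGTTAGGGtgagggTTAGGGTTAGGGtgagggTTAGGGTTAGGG
12p, chr12:60001-60120: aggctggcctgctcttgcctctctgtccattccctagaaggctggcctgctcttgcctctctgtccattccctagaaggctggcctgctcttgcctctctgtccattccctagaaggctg
The unit occurred 10 times in the 120 bases shown for 10q, between variants of it, and not at all in those for 12p. Searched on the strand named above with no overlap between units, the outermost 1000 called bases held 10 or more units at 17 of the 39 ends. Of the 2684312 windows of 1000 called bases on autosomes, 146 (0.00544%) held as many on either strand. At 10 ends the outermost bases held none on either strand. Over the whole 5 Mb the unit was no more frequent than elsewhere, at 359 units per Mb counted on both strands in end bins and 379 in other autosomal bins. The values below therefore concern the 5 Mb behind the repeat array and not the array.

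A contact can be read only where HindIII cuts. Every one of the 13525 inner bin edges on autosomes lay within 6 bases of a HindIII site, AAGCTT, as the edges of 2 bins from the end of 10q show, with the site in capitals.
10q bin with 20 sites, edge at chr10:135004492-135004551: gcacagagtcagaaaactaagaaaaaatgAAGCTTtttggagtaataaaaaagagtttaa
10q bin with 66 sites, edge at chr10:130600638-130600697: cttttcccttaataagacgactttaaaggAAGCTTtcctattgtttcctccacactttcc
The first of these bins held 12 protein-coding genes at 58.6% GC, and 75.1% of its pairs were listed in Grow and 56.4% in OIS. The second held none at 45.1% GC, with 76.9% listed in Grow and 66.2% in OIS. They were the bins of this end with the fewest and the most sites.

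End bins were richer in GC and in genes than the rest and had fewer cutting sites. Mean GC content was 47.4% ± 6.08 (SD over 998 bins) against 40.5% ± 4.41 in the 12549 other autosomal bins. Mean protein-coding genes per bin were 2.41 against 1.34, and the end bins held 2406 genes in all. Mean HindIII sites per bin were 44.7 ± 14.7 against 57.9 ± 14.4. Toward the chromosome end these features changed together. In the outermost 1 Mb GC was 48.4% with 40.1 sites and 3.15 genes per bin, and at 5 to 6 Mb it was 43.7% with 53.5 sites and 1.49 genes.

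Bins that could not be kept were on average richer in genes. The 223 end bins left out had a mean GC of 53.5%, 29.8 sites and 4.32 genes, and the 775 kept had 45.7%, 48.9 sites and 1.86 genes. Of end bins with 1 to 20 sites, 16.3% were kept, and of those with 61 to 80 sites 99.3%. The share kept was 77.7% at the ends and 96.0% elsewhere, and it fell to 68.2% in the outermost 1 Mb. It ranged from 2 of 26 bins at 16q and 4 of 26 at 19p to every bin at 12 ends, and 9 ends kept under 50%. Listing also differed between maps, with on average 79.4% of the pairs of an end bin listed in Grow, 65.0% in OIS and 65.2% in OIS-shA1. The contact values below thus describe the less gene-rich part of the ends, and means cover the pairs scored in every one of the 4 maps unless stated.

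**Figure D1:**
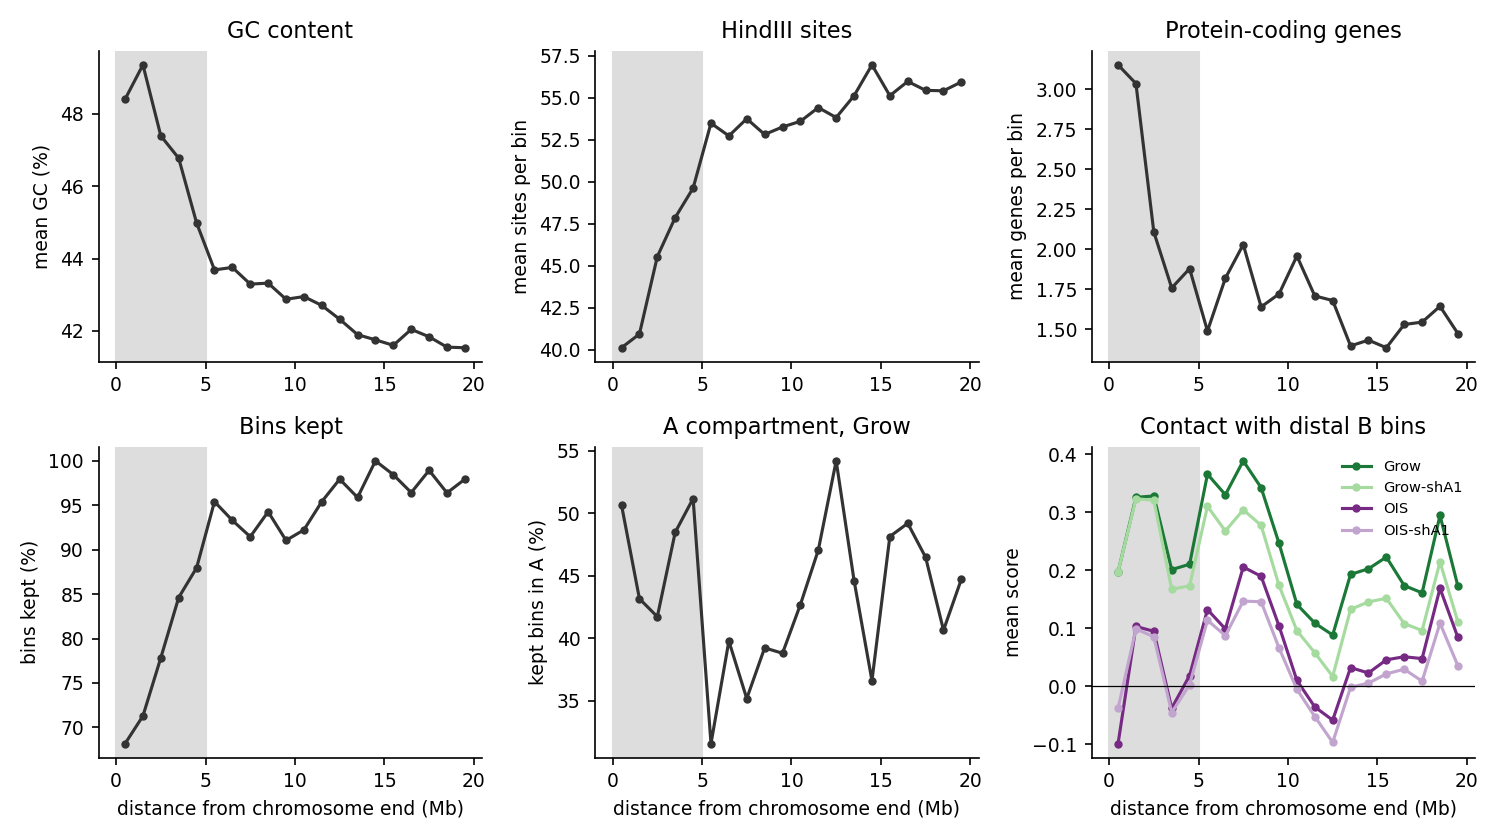
Mean GC content, HindIII sites and protein-coding genes per bin, the share of bins kept, the share of kept bins in the A compartment of Grow and the mean score with distal B bins in the 4 maps, by distance from the nearest chromosome end in steps of 1 Mb. The grey band marks the 5 Mb that define the member bins, in which GC is 48.4% in the outermost 1 Mb, against 43.7% just outside it, and the share kept rises from 68.2% to 88.0%.

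The ends were mixed in compartment. In Grow, 366 of the 775 kept end bins (47.2%) were A, against 42.1% of other kept autosomal bins, where A and B are the signs of the first principal component of a chromosome's contact correlations, oriented by gene density. There were 18 ends with more A than B bins, 19 with more B and 2 with as many of each. All kept bins were A at 16p (9 bins), 16q (2) and 19p (4), and all 5 were B at 1p, where 21 of 26 bins had been left out. The end of 10q was mostly B, with 22 of 26 bins. So was 19q, with 20 of 26 bins B although it held 192 protein-coding genes. This end carries large clusters of zinc-finger genes.

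At a given GC content, end bins were less often A than other bins and had higher scores with both B and A chromatin. Between 45% and 48% GC, 46.0% of 163 end bins were A in Grow, against 62.4% of 984 other bins. Mean HindIII sites were alike in this band, at 47.9 and 48.1, but genes per bin were not, at 1.57 and 2.56. Contact with distal B bins (over 2 Mb away and outside the ends of the same chromosome) had a mean score of 0.281 ± 0.605 (SD over bins) at the ends and -0.169 ± 0.614 elsewhere. The score is the authors' contact value relative to the mean at the same distance, in units whose scale is not stated. In all 7 GC bands the end bins had the lower share of A bins and the higher score with B bins, from 0.649 against 0.478 at up to 38% GC to -0.103 against -0.396 above 52%. Their score with distal A bins was also higher in all 7 bands, by less, as with 0.0429 against 0.00448 between 45% and 48% GC. Neighbouring bins share chromatin domains and are not independent, so these SDs over bins give no error for the difference.

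**Figure D2:**
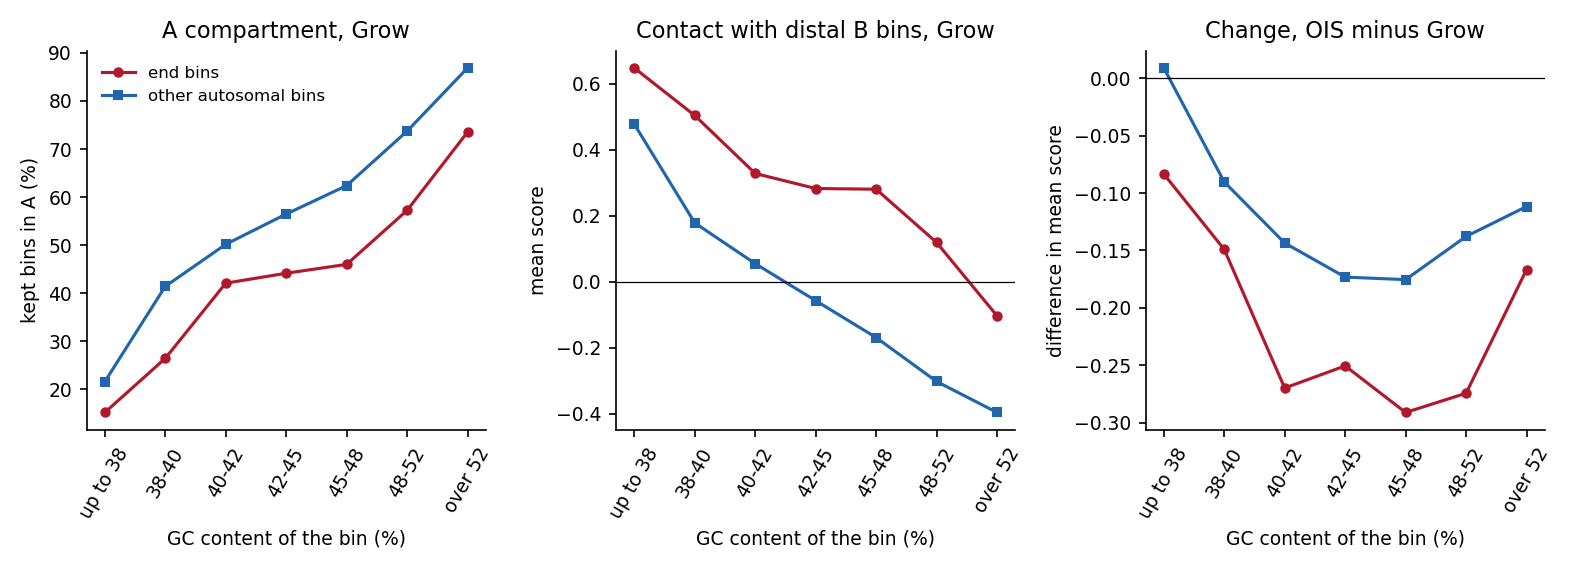
Share of kept bins in the A compartment of Grow, mean score with distal B bins in Grow, and its change in OIS relative to Grow, for end bins (red) and other autosomal bins (blue) in 7 bands of GC content. End bins lie below other bins in the share of A and in the change, and above them in the score in Grow, in every band.

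Both ends of a chromosome contacted each other above the level of their distance. The mean end-to-end score in Grow was 0.343 ± 0.195 (SD over 17 chromosomes) and was above 0 on 16 of 17. Grow-shA1 had 0.277 ± 0.252, OIS 0.283 ± 0.262 and OIS-shA1 0.225 ± 0.217. Scores between an end and the window 5 to 10 Mb from the other end were lower, with 0.260 ± 0.157 in Grow, and those between both such inner windows lower again, with 0.191 ± 0.143. The end-to-end score was above that of the inner windows on 14 of 17 chromosomes in Grow. The exceptions were chromosomes 2, 11 and 19. The level itself depended on which pairs were used: with unlisted pairs set to the lowest score of their map at that distance, the Grow mean was 0.00826.

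The mean score was higher at the very tips than over the whole ends. Over pairs with both bins in the outermost 1 Mb, which 13 chromosomes had, it was 0.843 ± 0.435 in Grow, 0.661 ± 0.371 in Grow-shA1, 0.761 ± 0.625 in OIS and 0.799 ± 0.557 in OIS-shA1. These means rest on 167 pairs in all, with 1 to 29 per chromosome. Scores of the tips with unlisted pairs set to the lowest score were not computed, so how far they depend on the listed pairs is unknown. The tips of chromosome 17 had 1.52 in Grow, 1.24 in Grow-shA1, 1.51 in OIS and 1.43 in OIS-shA1 over 25 pairs. Those of chromosome 18 had 1.22, 0.893, 1.31 and 1.47 in the same order of maps over 24 pairs. Not all tips were high. Those of chromosome 3 had 0.00728 in Grow, 0.249 in Grow-shA1, -0.118 in OIS and -0.557 in OIS-shA1 over 5 pairs. Chromosome 9 had 0.265 in Grow and 0.0474 in OIS over 5 pairs, and the 1 pair of chromosome 19 had 0.727 in Grow and -0.658 in OIS. The tip score was above the score of the whole ends on 12 of 13 chromosomes in Grow, 11 in Grow-shA1, 11 in OIS and 12 in OIS-shA1. Where the farther bin lay 1 to 2 Mb from its end the Grow score was 0.311, and it was 0.231 for 4 to 5 Mb and 0.0809 for 14 to 15 Mb. Without the outermost 1 Mb the end-to-end score of Grow was 0.273, and its excess over the inner windows was 0.0826 in place of 0.153.

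**Figure D3:**
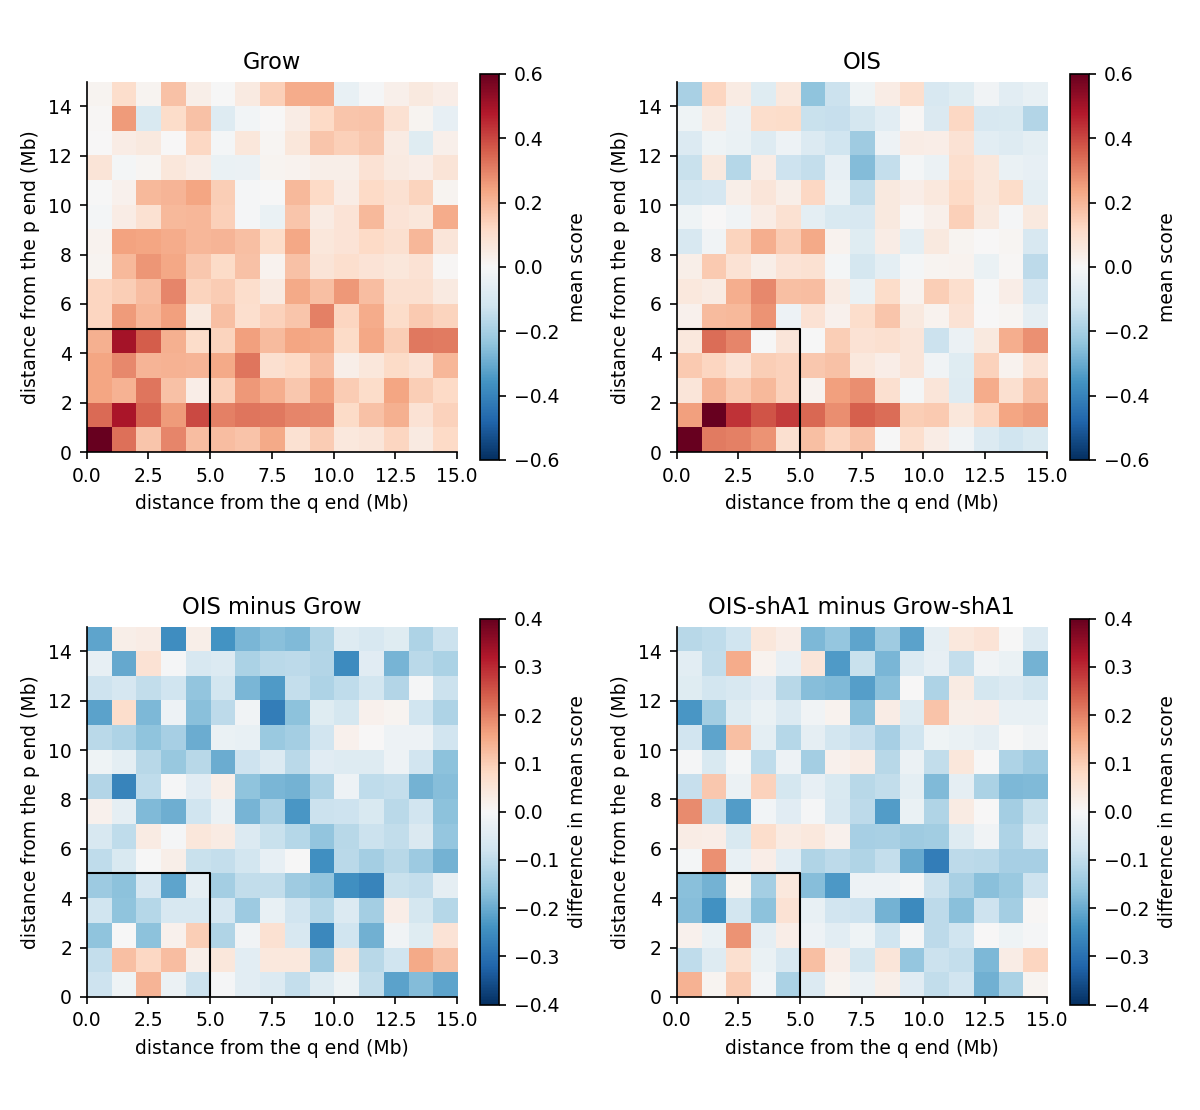
Mean score between strips of 1 Mb counted from the p end (vertical) and from the q end (horizontal), averaged over the chromosomes with both ends, in Grow and OIS, and the change with RAS without and with shA1. Black lines enclose the 5 Mb of each end, and the colour scale stops at 0.6, below the 0.843 of the corner cell in Grow.

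On the longest chromosomes few other pairs lie at such distances, and chromosome 1 had none to compare. Set against other autosomal pairs of the same distance on any chromosome, the end-to-end score was higher by 0.162 ± 0.201 in Grow, and on 14 of the 16 chromosomes with such pairs. The excess was 0.144 ± 0.245 in Grow-shA1, 0.155 ± 0.288 in OIS and 0.129 ± 0.230 in OIS-shA1. Pairs of like compartment had the higher scores, with 0.439 ± 0.180 for A with A pairs (13 chromosomes) and 0.467 ± 0.229 for B with B pairs (15 chromosomes) in Grow. Pairs of an A with a B bin had 0.178 ± 0.163 (14 chromosomes) and were above 0 on 12. A and B were called from the same Grow map as these scores, so higher scores of like pairs are partly built in.

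By chromosome, the highest end-to-end score in Grow was on chromosome 1, with 0.738 in Grow, 0.746 in Grow-shA1, 0.328 in OIS and 0.307 in OIS-shA1. Chromosome 10, whose ends had 249 pairs, had 0.562 in Grow, 0.586 in Grow-shA1, 0.628 in OIS and 0.663 in OIS-shA1, with no fall in OIS. Chromosome 8 had 0.560 in Grow, 0.482 in Grow-shA1, 0.660 in OIS and 0.468 in OIS-shA1. The lowest was on chromosome 19, with -0.0992 in Grow, -0.429 in Grow-shA1, -0.397 in OIS and -0.236 in OIS-shA1, the one pair of ends below 0 in all 4 maps, where mostly A bins of 19p met mostly B bins of 19q over 12 pairs. Chromosomes 11 and 4 followed, with 0.142 and 0.168 in Grow.

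**Figure D4:**
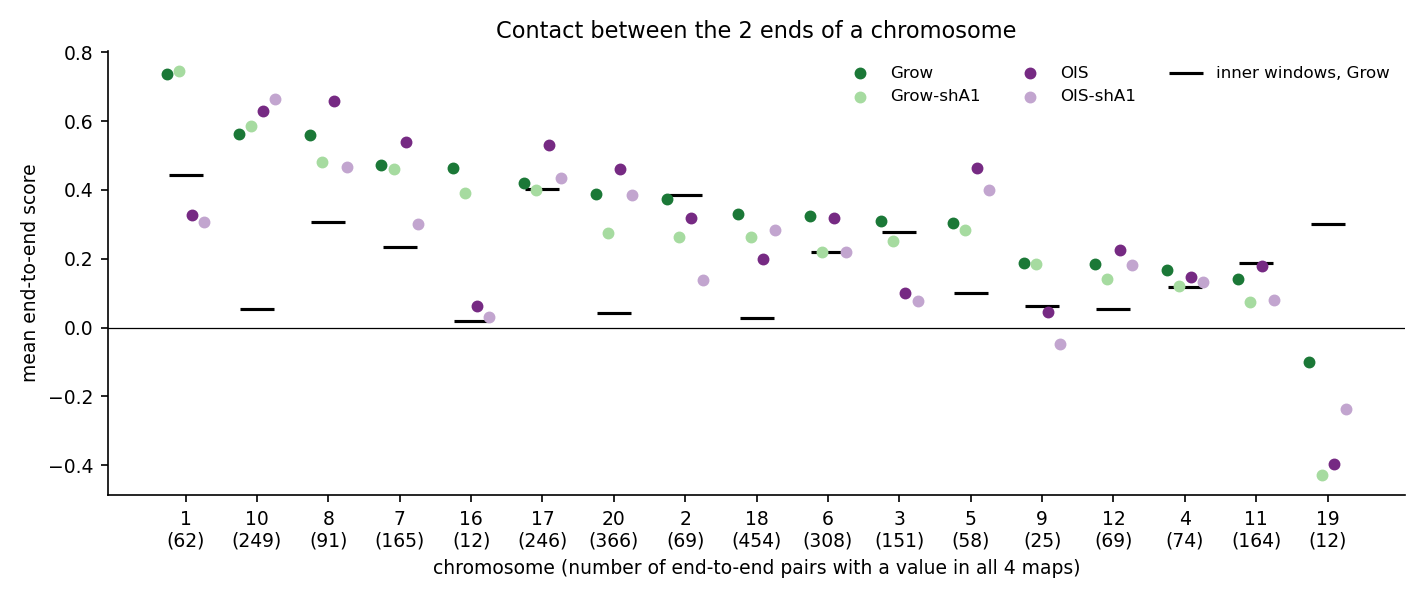
Mean end-to-end score of the 17 chromosomes in the 4 maps, ordered by Grow, with a black bar for the inner windows 5 to 10 Mb from the ends in Grow. Values lie above 0 on all chromosomes but 19 in Grow, and chromosomes 1 and 16 show the widest drop from the Grow to the OIS points.

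With RAS, end-to-end contact over the pairs scored in every map was higher on some chromosomes and lower on others. OIS minus Grow was -0.0602 ± 0.178, with 8 chromosomes higher and 9 lower, and OIS-shA1 minus Grow-shA1 was -0.0525 ± 0.172, with 10 higher and 7 lower. These differences are smaller than their SD over chromosomes, but the count of directions depended on the pairs and the scale. With unlisted pairs at the lowest score, of which OIS has more, OIS minus Grow was -0.201 ± 0.137 (lower on 17 of 17) and the comparison with shA1 -0.122 ± 0.130 (lower on 15). With scores divided by their SD at each distance, OIS minus Grow was lower on 16 of 17 chromosomes and the comparison with shA1 on 10. The largest falls without shA1 were on chromosome 1 (-0.410), 16 (-0.403, 12 pairs) and 19 (-0.297, 12 pairs). With shA1 the same chromosomes changed by -0.439, -0.362 and 0.193, so chromosome 19 went the other way. The largest rises were on chromosome 5 (0.158 without and 0.118 with shA1), 17 (0.109 and 0.0347) and 8 (0.0995 and -0.0139). Without chromosomes 9, 16 and 19, which had under 50 pairs, OIS minus Grow was -0.0131 and OIS-shA1 minus Grow-shA1 was -0.0351. At the tips, OIS minus Grow was -0.0822 ± 0.478 and OIS-shA1 minus Grow-shA1 was 0.138 ± 0.493 over 13 chromosomes. Without chromosome 19, which had 1 pair there, they were 0.0263 ± 0.286 and 0.0718 ± 0.450, so the tips give no direction for OIS minus Grow.

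Over the pairs scored in every map, the maps with shA1 had the lower mean end-to-end scores. Grow-shA1 minus Grow was -0.0659 ± 0.0793, lower on 15 of 17 chromosomes, and OIS-shA1 minus OIS was -0.0581 ± 0.0980, lower on 14. Inner windows moved the same way on fewer chromosomes, with -0.0403 ± 0.0801 (10 of 17 lower) and -0.0452 ± 0.116 (10 of 17 lower). Relative to other pairs of the same distance, the end-to-end differences were -0.0183 ± 0.0780 and -0.0262 ± 0.114. Both comparisons set the new data against the earlier data set. Among kept bins, the mean share of listed end-to-end pairs was 82.0% in Grow against 74.3% in Grow-shA1. In senescent cells the shares were close, at 63.2% in OIS against 61.7% in OIS-shA1. With unlisted pairs set to the lowest score, Grow-shA1 minus Grow was -0.0809 (lower on 17 of 17), whereas OIS-shA1 minus OIS was -0.00193 (lower on 7 of 17), so the difference between the senescent maps depended on the listed pairs. The hairpin and the data set cannot be told apart here.

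Contact between chromosome ends and B chromatin was lower in both senescent maps. In Grow the mean score of an end with distal B bins was 0.295 ± 0.424 (SD over 39 ends), and 30 of 39 ends were above 0. This level depended on the pairs used, and with unlisted pairs at the lowest score it was -0.0281, above 0 at 19 ends. Over the pairs scored in every map it was 0.0255 ± 0.487 in OIS, 0.274 ± 0.428 in Grow-shA1 and 0.0350 ± 0.439 in OIS-shA1. The senescent value was below the growing one at every end, by a mean of 0.270 ± 0.134 without shA1 (differences from -0.619 to -0.0294) and 0.239 ± 0.128 with shA1 (from -0.603 to -0.0585). These are 2 differences with no map in common, and across the 39 ends they had a Pearson r of 0.814 and a Spearman rho of 0.741, given as a description because ends of a chromosome share their B bins. The windows 5 to 10 Mb from the ends were also lower, at 39 of 39 by 0.201 ± 0.119 without shA1, and at 38 of 39 by 0.177 ± 0.111 with it. By distance, bins in the outermost 1 Mb had a mean change of -0.296, those at 5 to 6 Mb -0.233 and those at 19 to 20 Mb -0.0886 in OIS minus Grow. The decline was not even, with -0.223 at 1 to 2 Mb and -0.192 at 4 to 5 Mb, inside the ends, and -0.231 at 6 to 7 Mb, outside them.

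**Figure D5:**
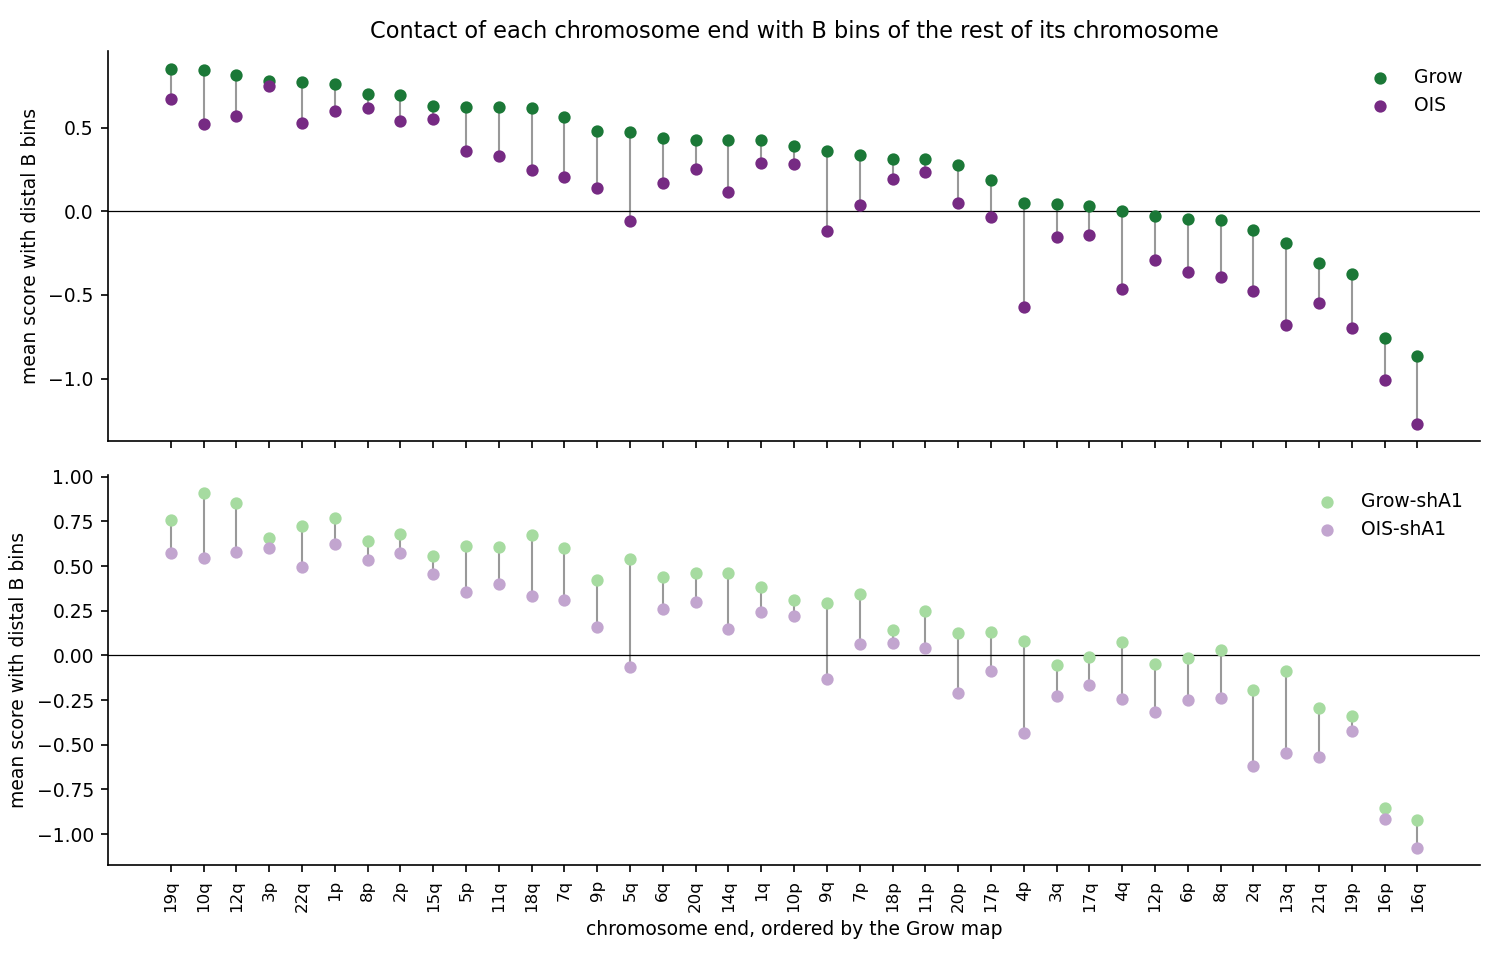
Mean score of each of the 39 chromosome ends with distal B bins of its chromosome, in Grow and OIS (top) and in Grow-shA1 and OIS-shA1 (bottom), ordered by Grow. Grey lines join the values of 1 end, and at all 39 ends the OIS point lies below the Grow point in both panels.

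At single ends, the highest B contact in Grow was at 19q, with 0.854 in Grow, 0.755 in Grow-shA1, 0.671 in OIS and 0.572 in OIS-shA1. At 10q it was 0.842 in Grow, 0.910 in Grow-shA1, 0.524 in OIS and 0.546 in OIS-shA1, and at 12q 0.817 in Grow, 0.850 in Grow-shA1, 0.569 in OIS and 0.579 in OIS-shA1, so these 3 ends were above 0 in every map. The lowest was at 16q, with -0.863 in Grow, -0.922 in Grow-shA1, -1.27 in OIS and -1.08 in OIS-shA1, from 2 kept bins. The ends 16p and 19p, both all A, had -0.759 and -0.376 in Grow and -1.01 and -0.696 in OIS. The largest fall was at 4p, from 0.0478 in Grow to -0.571 in OIS and from 0.0802 to -0.432 with shA1, over 6 kept bins. The end of 5q went from 0.473 to -0.0597 without and from 0.539 to -0.0630 with shA1, and 13q from -0.189 to -0.680 and from -0.0886 to -0.544. The smallest falls were at 3p (-0.0294), 11p (-0.0777) and 15q (-0.0805). Without the 9 ends that kept under 50% of their bins, the mean change was -0.237 without and -0.222 with shA1, lower at 30 of 30 ends in both.

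Counted by bin, 599 of 775 end bins (77.3%) fell by over 0.1 score units with distal B bins in OIS minus Grow, against 47.9% of all kept autosomal bins. In OIS-shA1 minus Grow-shA1 it was 581 of 775 against 42.6%. Median changes were -0.233 and -0.205 at the ends, and -0.0902 and -0.0657 over all kept autosomal bins. Between 45% and 48% GC the mean change without shA1 was -0.291 at the ends and -0.175 elsewhere, and the fall was larger at the ends in all 7 GC bands.

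End bins of both compartments shared in the fall. B end bins had a score with distal B bins of 0.676 ± 0.241 (SD over 21 chromosomes) in Grow and 0.401 ± 0.357 in OIS, and all 21 chromosomes fell, by 0.275 ± 0.152 without shA1 and 0.273 ± 0.137 with it. Other B bins of the same chromosomes had 0.662 in Grow and 0.570 in OIS, a change of -0.0926 ± 0.106. The fall was larger at the ends on 19 of 21 chromosomes without and 18 with shA1. In Grow, B end bins and other B bins were thus close in B contact, with ends higher on 13 of 21 chromosomes, and in OIS ends were lower on 13. A end bins had -0.168 ± 0.222 (SD over 22 chromosomes) with distal B bins in Grow and -0.411 ± 0.253 in OIS, a change of -0.243 against -0.124 for other A bins, larger at the ends on 20 of 22. In Grow these A end bins contacted B bins more than other A bins did, on 18 of 22 chromosomes.

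Ends and other bins also differed at matched distances. At 10 to 20 Mb, B end bins changed with B bins by -0.422 in OIS minus Grow (lower on 21 of 21 chromosomes) and other B bins by -0.195. From 20 to 50 Mb the values were -0.431 and -0.150, and from 50 to 100 Mb -0.151 and -5.07e-05. Beyond 100 Mb, on 12 chromosomes, they were -0.0421 and 0.0411. The fall was larger with B bins of the same arm, -0.336 ± 0.145 over 34 ends, than with those of the other arm, -0.0906 ± 0.129. With shA1 the values were -0.311 ± 0.156 and -0.0400 ± 0.0964. The other arm was lower at 24 of 34 ends without shA1 and at 22 with it. The arms were not compared at matched distance, so arm and distance cannot be told apart here.

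Contact of ends with A chromatin fell less. The mean score of an end with distal A bins was 0.121 ± 0.157 in Grow, 0.0803 ± 0.168 in Grow-shA1, 0.0107 ± 0.204 in OIS and -0.00825 ± 0.199 in OIS-shA1. The sign of the Grow level depended on the pairs used, with -0.0132 over all pairs that Grow lists. OIS minus Grow was -0.110 ± 0.0884, lower at 36 of 39 ends, and OIS-shA1 minus Grow-shA1 was -0.0886 ± 0.0815, lower at 35. By bin, 405 of 773 end bins (52.4%) fell by over 0.1 without shA1 against 38.1% of all, and 360 (46.6%) with shA1 against 34.6%. At a threshold of 0.2 the shares were close, at 26.4% against 25.2% without shA1 and 22.3% against 20.9% with it. The highest values in Grow were at 10p (0.409), 17p (0.391) and 16p (0.361), and the lowest at 5p (-0.220), 16q (-0.213) and 4p (-0.112). The largest falls were at 16q (-0.323), 15q (-0.270) and 3p (-0.264), and the ends that did not fall were 21q (0.0636), 1p (0.0278) and 16p (0.00101). With shA1 all 3 were lower in the senescent map, at -0.123, -0.0720 and -0.0180.

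Averaged over all distal pairs, A end bins and other A bins moved in opposite directions in their contact with A chromatin. A end bins had 0.339 ± 0.114 with distal A bins in Grow, 0.333 ± 0.104 in Grow-shA1, 0.258 ± 0.112 in OIS and 0.248 ± 0.124 in OIS-shA1 (SD over 22 chromosomes). Other A bins had 0.213, 0.201, 0.251 and 0.248 in the same order. OIS minus Grow was -0.0816 ± 0.0726 at the ends and 0.0381 ± 0.0854 elsewhere, and the ends lay lower on 20 of 22 chromosomes. With shA1 the values were -0.0852 and 0.0464, with ends lower on 20. At matched distance in OIS minus Grow, the opposite signs held only at 10 to 20 Mb (-0.0659 and 0.0762). Both rose at 2 to 5 Mb (0.0157 and 0.116) and at 5 to 10 Mb (0.0790 and 0.139). Both were below 0 at 20 to 50 Mb (-0.150 and -0.0119) and at 50 to 100 Mb (-0.0851 and -0.0139). Beyond 100 Mb both were below 0 and close, at -0.0734 and -0.0654. In OIS-shA1 minus Grow-shA1 the signs were opposite at 2 to 5 Mb (-0.0506 and 0.0423) and 10 to 20 Mb (-0.0925 and 0.0907). They were also opposite at 20 to 50 Mb (-0.135 and 0.0370) and 50 to 100 Mb (-0.0627 and 0.00939). In that comparison both rose at 5 to 10 Mb (0.0684 and 0.134) and both were below 0 beyond 100 Mb (-0.0562 and -0.0654). B end bins with distal A bins changed by -0.125 ± 0.116 in OIS minus Grow over 21 chromosomes. Other A bins with distal B bins changed by -0.116 on the same chromosomes, and the ends lay lower on 13.

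Between maps with and without shA1, mean differences in contact with distal B bins were smaller than their SD over ends. The score with distal B bins differed by -0.0212 ± 0.0662 in Grow-shA1 minus Grow and 0.00949 ± 0.113 in OIS-shA1 minus OIS, lower at 22 and 19 of 39 ends. By bin, 167 end bins (21.5%) fell by over 0.1 with B bins in Grow-shA1 minus Grow and 93 (12%) rose, against 36.2% and 3.88% of all kept autosomal bins. In OIS-shA1 minus OIS 179 (23.1%) fell and 181 (23.4%) rose, against 35.7% and 13.4%. End bins therefore fell less often and rose more often with B chromatin than the autosomal background in both comparisons, each of which also compares the data sets. By mean change, ends did not lie higher than other bins in every GC band. In Grow-shA1 minus Grow they lay lower at up to 38% GC (-0.132 and -0.0956) and higher in all other bands. In OIS-shA1 minus OIS they lay lower at up to 38% (-0.135 and -0.0861) and at 38% to 40% (-0.0674 and -0.0581). They were also lower above 52% GC (0.0500 and 0.0740), and higher in the bands between. Among B bins, the score with B bins changed by -0.0194 at the ends and -0.0793 elsewhere in Grow-shA1 minus Grow, and by -0.0178 and -0.0859 in OIS-shA1 minus OIS. The change with RAS of B contact at the ends with shA1 minus that without it, in which a constant offset between data sets cancels, was 0.0306 ± 0.0803 over 39 ends, above 0 at 26. It was alike for the inner windows, at 0.0240 ± 0.0593, above 0 at 24 of 39. Among A bins it was 0.0532 ± 0.0688 at the ends (above 0 on 19 of 22 chromosomes) and 0.0721 ± 0.0365 elsewhere (22 of 22).

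Contact with distal A bins was lower with shA1 in growing cells. Grow-shA1 minus Grow was -0.0409 ± 0.0501 over 39 ends, lower at 32, although after centring on common pairs it was 0.0165. OIS-shA1 minus OIS was -0.0189 ± 0.0787, lower at 20. Within the ends, the difference in growing cells lay mainly in B end bins, which had -0.0780 ± 0.0495 with distal A bins (lower on 20 of 21 chromosomes). A end bins had -0.00657 ± 0.0299 (lower on 15 of 22). It was not particular to the ends. Inner windows with distal A bins had -0.0417 ± 0.0380, lower at 35 of 39. Other A bins with distal B bins had -0.0610 on the same 21 chromosomes, and B end bins lay below them on 14. In senescent cells B end bins had -0.0226 ± 0.0578 (lower on 16 of 21). These values also compare the data sets.

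Compartment calls at the ends changed from B to A with RAS in a share near the background. In OIS minus Grow, 74 of 775 end bins (9.55%) changed from B to A, and 7 changed from A to B, against 8.89% and 0.686% of all kept autosomal bins. In OIS-shA1 minus Grow-shA1 65 (8.39%) went from B to A, against 7.70%, and 9 from A to B, against 0.827%. The 46 end bins that did so in both comparisons were 62.2% of those without and 70.8% of those with shA1. This overlap was not computed over all kept autosomal bins, so it gives no trait of the ends. The 74 without shA1 lay in 31 of the 39 ends, most in 9p and 11q with 6 bins each. With a principal component per arm, 17 end bins (2.19%) changed from A to B in OIS minus Grow, against 2.04% of all kept autosomal bins.

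Contact within an end was uneven between ends. Local pairs (2 Mb or less) had -0.0724 ± 0.475 in Grow and -0.0684 ± 0.525 in OIS over 38 ends, with a change of 0.00402 ± 0.321 (21 up, 17 down). After centring on common pairs the change was 0.155 ± 0.317 (29 up, 9 down). With shA1 the change, without centring, was -0.0643 ± 0.225. Pairs over 2 Mb apart within an end had -0.216 ± 0.701 in Grow and -0.463 ± 0.879 in OIS over 37 ends. They fell at 27 of 37 ends without and at 30 with shA1, by 0.248 ± 0.330 and 0.323 ± 0.359.

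Many genes known from chromosome ends lay in bins that could not be kept. Of 32 genes on the lists, all in member bins by their start of transcription, 18 had no contact value. They include TERT, the catalytic subunit of telomerase, the alpha-globin genes HBA1 and HBA2, DUX4, whose derepression causes facioscapulohumeral dystrophy, the deacetylase gene SIRT6, the collagen genes COL6A1, COL6A2, COL18A1 and COL5A1, and HRAS itself. The 14 others lay in 13 bins, 8 of them A in Grow. With distal B bins, 12 of the 13 bins had a lower score in OIS than in Grow and 12 a lower one in OIS-shA1 than in Grow-shA1, where each bin holds 1 to 8 genes and its value belongs to the bin. The median change was -0.246 without and -0.306 with shA1, beside -0.233 and -0.205 over all kept end bins. Lower scores were common at the ends. Of all 775 kept end bins, 599 fell and 16 rose by over 0.1 without shA1, and 581 fell and 20 rose with it. Falls of any size were not counted over all kept end bins, so the 12 of 13 give no trait of these genes.

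Among telomere-linked genes, the 4q bin of FRG1 (chr4:190801250-190983675, GRCh37), a neighbour of the facioscapulohumeral dystrophy repeat, had B scores of 0.351 in Grow, 0.353 in Grow-shA1, -0.179 in OIS and 0.0466 in OIS-shA1. The bin of SORBS2 (chr4:186802217-186999712), a cytoskeletal adaptor gene farther in on 4q that has been linked to telomere looping, had 0.228 in Grow, 0.294 in Grow-shA1, -0.292 in OIS and -0.120 in OIS-shA1. Both were B in Grow and had a compartment score above 0 in OIS. With shA1 the compartment score of the FRG1 bin stayed below 0 (-0.828 in Grow-shA1 and -0.317 in OIS-shA1). That of the SORBS2 bin went from -0.551 to 0.239. The 22q bin of SHANK3, a synaptic scaffold gene, had -0.369 in Grow, -0.281 in Grow-shA1, -0.616 in OIS and -0.549 in OIS-shA1. All 3 bins had lower values in the senescent map, without and with shA1, and for FRG1 and SORBS2 the difference was larger without shA1.

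Of the 10 extracellular matrix genes, 5 lay in kept bins, and their 4 bins were A in Grow, beside 47.2% of all kept end bins. The bin shared by the type IV collagen genes COL4A1 and COL4A2 on 13q (chr13:110800905-110995164) had B scores of -0.864 in Grow, -0.888 in Grow-shA1, -0.835 in OIS and -0.822 in OIS-shA1, the one bin of the 13 without a fall. That of COL6A3, a type VI collagen chain, had -0.630 in Grow, -0.765 in Grow-shA1, -0.818 in OIS and -0.831 in OIS-shA1. The bins of TIMP2, an inhibitor of matrix metalloproteinases, and GPC1, a cell-surface proteoglycan, went from -0.0839 to -0.241 and from -0.220 to -0.505 in OIS. With shA1 they went from -0.0707 to -0.164 and from -0.276 to -0.704.

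Among signalling and growth genes, the 6p bin of the transcription factor gene IRF4 (chr6:203816-402742) had 0.113 in Grow, 0.144 in Grow-shA1, -0.339 in OIS and -0.172 in OIS-shA1 with B bins, while FOXC1, a forkhead factor gene farther in on 6p, had -0.286 in Grow, -0.326 in Grow-shA1, -0.465 in OIS and -0.478 in OIS-shA1. The imprinted growth genes IGF2 and CDKN1C on 11p, a growth factor and an inhibitor of cyclin-dependent kinases, changed by -0.0714 and -0.103 in OIS minus Grow and by more with shA1, -0.351 and -0.191. The bin of IGF2 had -0.308 in Grow, -0.277 in Grow-shA1, -0.379 in OIS and -0.628 in OIS-shA1. The histone deacetylase gene HDAC4 on 2q lay in a bin with 0.122 in Grow, 0.133 in Grow-shA1, -0.167 in OIS and -0.347 in OIS-shA1. That of the hedgehog ligand gene SHH on 7q had 0.393 in Grow, 0.499 in Grow-shA1, 0.0729 in OIS and 0.0846 in OIS-shA1, lower with RAS in both pairs of maps and above 0 throughout. A value of 1 bin rests on 31 to 407 B pairs, and the reads behind a pair are not given, so the precision of a single bin is unknown.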

How the data were processed

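In-nucleus Hi-C with HindIII was measured in 4 samples (Grow-shA1 and OIS-shA1, 2 each). Per the study's methods the authors aligned reads to hg19 with HiC-Pro, removed duplicates, applied iterative correction (ICE) and distance correction at 200 kb and worked with diffHic. A single map was deposited per condition, and how replicates were joined is not given in the sources used here. The deposited values are 1 score per pair of bins of a chromosome, of either sign, with scale and prior not stated and no read counts, so the depth behind a pair is unknown and no count test could be used. The tables of Grow and OIS have no sample in the series.

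Bins with at least 50% of their pairs listed in each map were kept, averages used the pairs scored in every map, and distal pairs lie over 2 Mb apart. Compartments were the first principal component of the correlation matrix per chromosome in Grow, oriented by protein-coding genes (GENCODE). Bin features, sites and sequences were read from GRCh37, whose chromosome lengths matched the bin list. Python 3.11.15, numpy 2.4.6, pandas 2.3.3, scipy 1.17.1, pysam 0.24.0 and matplotlib 3.10.9 were used, and the code was tested on simulated data. Named chromosomes and ends are the 3 highest and 3 lowest in Grow and the 3 largest rises and falls in OIS minus Grow (for contact with B bins, which rose at no end, the smallest falls), and named genes come from 3 lists (telomere-linked, extracellular matrix, signalling and growth). Chromosomes 3, 9, 17, 18 and 19 for the tips and ends 10q and 19q for compartments were named after their values were seen. The members, lists and comparisons were chosen with earlier results of these data known. Alternatives were the end width, the outermost 1 Mb, the pairs and bins used, scaling, centring, medians, the compartment map and the threshold. Those that leave out chromosomes with under 50 pairs or ends with under 50% of bins kept, or the chromosome with 1 pair of tip bins, and all alternatives for the differences between ends and other bins and between ends and inner windows, were chosen after seeing the data.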

Additional observations from a re-analysis of the deposited data

How the results depend on the processing

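Of 495 alternative values, 473 moved by less than the SD over chromosomes or ends, or for counts stayed within 1.5 times. Another 5 turned the sign of a result that at least 75% of units shared, and 17 moved by more. For end-to-end and within-end differences this SD exceeds the difference itself, so the 473 include shifts in direction. Among them are end-to-end OIS minus Grow with unlisted pairs at the lowest score (lower on 17 of 17) and within-end OIS minus Grow after centring (0.155, 29 up and 9 down). The score of ends with distal B bins in OIS minus Grow ranged from -0.361 to -0.143 and in OIS-shA1 minus Grow-shA1 from -0.292 to -0.144. The excess of the change of B end bins over other B bins in OIS minus Grow ranged from -0.249 to -0.138, and the change of A end bins less that of other A bins, with A bins, from -0.176 to -0.100. End-to-end contact less that of the inner windows in Grow ranged from 0.0826 to 0.398, while end-to-end OIS minus Grow, from -0.264 to 0.0201, took both signs.

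Levels depended on which pairs entered. With unlisted pairs at the lowest score, end-to-end contact in Grow was 0.00826, contact with B bins in Grow -0.0281 and with A bins -0.120, both below 0 where the reported values are above it, and OIS minus Grow with A bins -0.213. Contact with A bins in Grow was also below 0 over all listed pairs (-0.0132) and after centring on common pairs (-0.0692), which turned Grow-shA1 minus Grow with A bins to 0.0165. With scores divided by their SD at each distance, which changes the unit, end-to-end contact was 0.848 in Grow, -0.264 in OIS minus Grow and -0.182 in Grow-shA1 minus Grow, and its excess over inner windows in Grow 0.398. With ends of 2 Mb that excess was 0.198 in OIS minus Grow and -0.235 in OIS-shA1 minus OIS. Against pairs of the same distance, A with A pairs alone gave -0.100 in Grow-shA1 minus Grow. Principal components per arm gave 18 end bins from B to A in OIS-shA1 minus OIS (2.32%, against 3.35% of all kept autosomal bins). That was in place of 5 (0.645%, against 1.47%). In Grow-shA1 minus Grow they gave 7 (0.903%, against 1.52%) in place of 3 (0.387%, against 1.27%). From A to B in OIS minus Grow it was 17 (2.19%, against 2.04%) in place of 7 (0.903%, against 0.686%). At a threshold of 0.2, 204 end bins (26.4%) fell with A bins in OIS minus Grow, against 25.2% of all kept autosomal bins. In OIS-shA1 minus Grow-shA1 172 (22.3%) did, against 20.9%, so both shares were near the background. With B bins, 52 (6.71%) fell and 58 (7.48%) rose in OIS-shA1 minus OIS, against 10.8% and 3.70% of all. In Grow-shA1 minus Grow 22 (2.84%) fell and 20 (2.58%) rose, against 5.03% and 0.554%. Why these values moved was not tested, beyond the higher threshold counting fewer bins.

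No paired analysis was possible because each condition is 1 map with no values per replicate, and leaving out a replicate was not possible for the same reason. The filter on listed pairs removed end bins of higher mean GC and gene content, and the reads behind a pair are unknown, so the depth limit of single pairs cannot be given.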
